A study of Mus musculus with 3 samples.

Results

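The comparison set the mRNA of CH12 cells treated with TGFb for 24 h against that of control CH12 cells, over all genes. CH12 is a mouse B lymphoma line, a single transformed line used to study immunoglobulin class switching. The 24 h library came from cells given TGFb at 5 ng/ml. For the control library the labels used here give neither a time nor a vehicle, so time in culture and treatment cannot be told apart. A library treated for 6 h at the same dose is given beside each value. Each group was 1 library, nothing shows the spread between cultures, and no difference below has a replicate check or a p-value. Genes were taken by level alone: at least 30 counts and 1 CPM in the higher of the 2 libraries, which held for 10726 of 24901 gene rows.

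TGFb is a cytokine that binds a type II receptor, which then recruits and phosphorylates a type I receptor. The type I receptor phosphorylates Smad2 and Smad3, which join Smad4 and act on genes in the nucleus, often at short DNA elements called Smad boxes. Smad6, Smad7 and the co-repressors Ski and Skil are feedback inhibitors of the pathway. In B cells TGFb is known for restraining growth and for directing class switching towards IgA.

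Total counts were 51386081 for control, 64229801 for 6 h and 27487221 for 24 h, spread over 14062, 14499 and 13893 genes. CPM here is the count scaled to library size, and 1 count was worth 0.0206 CPM in control and 0.0345 CPM at 24 h. Intervals beside folds are 95% exact conditional intervals of a ratio of counts (Clopper-Pearson). They cover counting error only, since the reads carry no molecular identifiers and cannot be taken as separate molecules.

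At 24 h, 797 genes (7.43% of the measured genes) were at least 2-fold higher than in control and 217 (2.02%) were at least 2-fold lower. Of all measured genes, 5255 had a ratio above 1 and 5471 a ratio below 1. These shares and this split are the background for the counts of each gene list below. Higher genes were thus 78.6% of those 2-fold apart, a share that was 90.1% when libraries were scaled by total counts (1075 higher, 118 lower) and 93.9% on the deposited TPM (1182 and 77). Those scalings placed the median log2 ratio of all measured genes at 0.15 and 0.24, against -0.01 here, with quartiles of -0.35 and 0.38. The other scalings gave shares of 75.2% to 80.8%, and a minimum of 5 CPM gave 74.3%. Limits of 1.5-fold and 3-fold gave 58.7% and 89.4%. The asymmetry was in size as well as number: 56 genes were at least 8-fold higher and 3 at least 8-fold lower. Among the 638 genes with a mean below 2 CPM, 34% were higher and 4.39% lower; the minimum of 1 CPM in the higher library favours genes that are apart in this class, so nothing is read from its shares. Among the 286 genes at 500 CPM or above, 2 were higher and 6 lower. Medians over the higher genes were 3.25 CPM for control and 10.7 CPM for 24 h, and over the lower genes 37.5 and 14.96 CPM. At the 2-fold limit, Ncoa2 stood just inside at 2.001-fold higher and Zfp710 just outside at 1.999-fold. On the lower side Psmg3 stood just inside at 2.003-fold and Kti12 just outside at 1.996-fold.

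**Figure D1:**
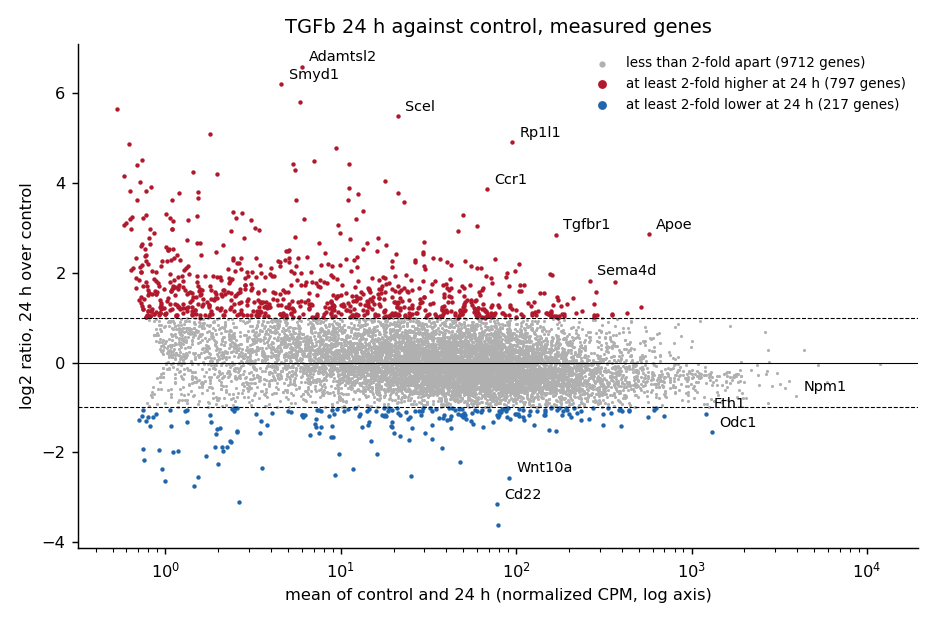
Log2 ratio of 24 h over control (vertical) against the mean normalized CPM of both libraries (horizontal, log axis), 1 point per measured gene. Dashed lines mark 2-fold; the 797 higher genes (red) lie mostly at low levels, and few of the 217 lower genes (blue) lie beyond 4-fold.

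At 6 h most of these genes already stood on the same side. The 6 h level lay between control and 24 h for 751 of the 797 higher genes and 214 of the 217 lower genes. It was beyond the 24 h level for 33 higher and 2 lower genes, and on the other side of control for 13 and 1. The genes were chosen with the control and 24 h values, so a 6 h level between both is a description only.

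The stretch of 250 bases before the start was read for the 6898 measured genes that had a single start in the RefSeq table of GRCm38.p6, out of 8686 matched by gene ID. The promoters of 4 genes with large differences at 24 h are shown, 3 of them higher (Nrarp, Ifnlr1, Ccr1) and 1 lower (Cd22), since they differ in how many Smad boxes and CpG dinucleotides they hold. Each is written 5′ to 3′ along the gene, and capitals mark the Smad box AGAC or its reverse complement GTCT.
Nrarp, chr2:25180508-25180757, plus strand: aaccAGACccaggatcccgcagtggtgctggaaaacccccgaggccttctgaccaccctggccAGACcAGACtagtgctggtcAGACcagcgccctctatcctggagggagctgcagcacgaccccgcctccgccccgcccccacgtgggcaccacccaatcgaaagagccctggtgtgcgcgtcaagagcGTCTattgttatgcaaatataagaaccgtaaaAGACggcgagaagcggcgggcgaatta
Ifnlr1, chr4:135686207-135686456, plus strand: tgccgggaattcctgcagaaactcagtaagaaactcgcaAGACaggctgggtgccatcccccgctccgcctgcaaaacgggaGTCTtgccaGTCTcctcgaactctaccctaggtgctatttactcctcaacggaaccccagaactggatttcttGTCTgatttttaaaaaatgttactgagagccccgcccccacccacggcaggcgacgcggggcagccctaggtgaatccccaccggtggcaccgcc
Ccr1, chr9:123968693-123968942, minus strand: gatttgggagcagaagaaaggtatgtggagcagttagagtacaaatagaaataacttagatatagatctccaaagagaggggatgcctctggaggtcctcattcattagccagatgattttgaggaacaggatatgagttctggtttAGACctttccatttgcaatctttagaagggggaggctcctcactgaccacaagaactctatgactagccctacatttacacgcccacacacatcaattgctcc
Cd22, chr7:30879029-30879278, minus strand: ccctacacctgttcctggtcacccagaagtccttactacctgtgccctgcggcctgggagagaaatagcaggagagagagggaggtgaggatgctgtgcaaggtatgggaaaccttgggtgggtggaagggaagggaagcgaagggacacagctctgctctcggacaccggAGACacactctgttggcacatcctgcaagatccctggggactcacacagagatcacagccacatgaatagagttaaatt
The Nrarp stretch held 6 boxes and 18 CpG, the Ifnlr1 stretch 4 boxes and 14 CpG, the Ccr1 stretch 1 box and 1 CpG, and the Cd22 stretch 1 box and 4 CpG.

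Smad boxes were common in promoters of all kinds. AGAC or GTCT was present in 83.9% of the 459 higher promoters and 73.5% of the 147 lower ones, beside 81.4% of all 6898. The palindrome GTCTAGAC, in which the box and its complement meet, was found in 15 promoters (0.217%), 3 of them of higher genes. These were Armc9, Ltb4r1 and Zfp52, named here for that match. The GC-rich element GGCGCC was in 12.6% of higher, 17% of lower and 17.4% of all promoters. The E-box CACGTG, the letters that Myc and Max bind, was in 7.19%, 12.9% and 8.51%. The AP-1 letters TGACTCA, on either strand, were in 3.27%, 4.76% and 2.54%, and the Runx letters TGTGGT, on either strand, in 12%, 10.2% and 10.8%. CpG content was lower on the higher side: promoters of higher genes held a median of 13 CpG and 3.49% held none, beside a median of 17 and 0.754% over all promoters. Promoters of lower genes held a median of 16, and none lacked CpG altogether. Median GC content was 59.6% for higher, 60% for lower and 60% for all promoters. The higher genes lay mostly at low levels, and the promoters were not matched for level. A match is a string of letters and does not show binding.

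The genes with the highest ratios included several of low level in control. Adamtsl2, a secreted protein that binds fibrillin, had 0.123 CPM in control, 11.3 at 6 h and 11.9 after 24 h, 96-fold higher (interval 43.7 to 264). Almost all of that difference was in place by 6 h. Smyd1, a methyltransferase best known from muscle, had 0.123, 4.0 and 9.06 CPM in control, 6 h and 24 h, 73.4-fold higher (interval 33.3 to 202). Lrig1, a membrane protein that restrains receptor tyrosine kinases, had 0.206, 1.45 and 11.6 CPM in the same order, so that its level was still low at 6 h. Mpzl2, an adhesion molecule of the immunoglobulin superfamily, had 0.473, 5.91 and 10.2 CPM. Scel, which encodes sciellin of stratified epithelia, had 0.926, 7.0 and 41.4 CPM and was 44.7-fold higher (interval 33.2 to 61.7). St8sia1, Adamtsl2, Lrig1, Itgax, Mpzl2 and Smyd1 had fewer than 30 control counts and at least 5 CPM at 24 h, and no gene met the mirror rule.

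Other leading genes were already expressed in control. Rp1l1, known from photoreceptors, had the largest difference on the log2(CPM + 1) scale at 6.11, 47.1 and 184 CPM, and Cd7, a lymphocyte surface protein, had 0.988, 4.49 and 21.2 CPM. Apoe, the apolipoprotein that carries lipid between cells, had 139 CPM in control, 568 at 6 h and 1006 after 24 h, 7.25-fold higher (interval 7.06 to 7.45). Ipcef1 had 12.9, 44.2 and 106 CPM, 8.22-fold higher, and Hoxd4, a homeobox factor, had 7.98, 37.6 and 51.6 CPM, 6.46-fold higher. Col15a1, a basement membrane collagen, had 1.75, 14.1 and 23.4 CPM, and Neurl3, an E3 ubiquitin ligase, had 2.35, 12.8 and 24.5 CPM. Each of these genes lay further from control at 24 h than at 6 h. Bfsp1, an intermediate filament protein of the lens, had 2.06, 5.72 and 17.2 CPM. Siglecf, a sialic acid binding receptor, had 2.37, 9.65 and 17.5 CPM, but some of its reads were shared with other genes.

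On the lower side the differences were smaller. Cd22, the sialic acid binding inhibitor of the B cell receptor, had 139, 37 and 15.6 CPM and was 8.94-fold lower (interval 8.13 to 9.85). Zfp428 had 50.8, 26.3 and 15.6 CPM, 3.25-fold lower (interval 2.93 to 3.59). St6gal1, the enzyme that makes the sialic acid ligand of CD22, had 37.5, 19.1 and 11.4 CPM and was 3.29-fold lower (interval 2.93 to 3.72). Both the receptor and the enzyme for its ligand were thus lower in the 24 h library. Pim1, a growth-promoting kinase, had 249, 149.8 and 87.1 CPM, 2.86-fold lower (interval 2.74 to 2.99). Dusp5, a phosphatase that inactivates Erk, had 22.9, 12.6 and 6.79 CPM, and Nfil3, a bZIP transcription factor, had 32.9, 12 and 10.6 CPM. Jchain, the chain that joins IgM and IgA multimers, had 454, 344 and 174 CPM, 2.61-fold lower (interval 2.53 to 2.69). Ehf, D1Ertd622e, Nrros, Slc5a9 and Ovol3 were between 4.61-fold and 8.58-fold lower, Ovol3 with shared reads. Cenpv, Cited4, Ppfia2, Adap1, Mcrip2, Arhgdig and Tomm5, also among the 30 lowest ratios, were between 2.6-fold and 3.17-fold lower.

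**Figure D2:**
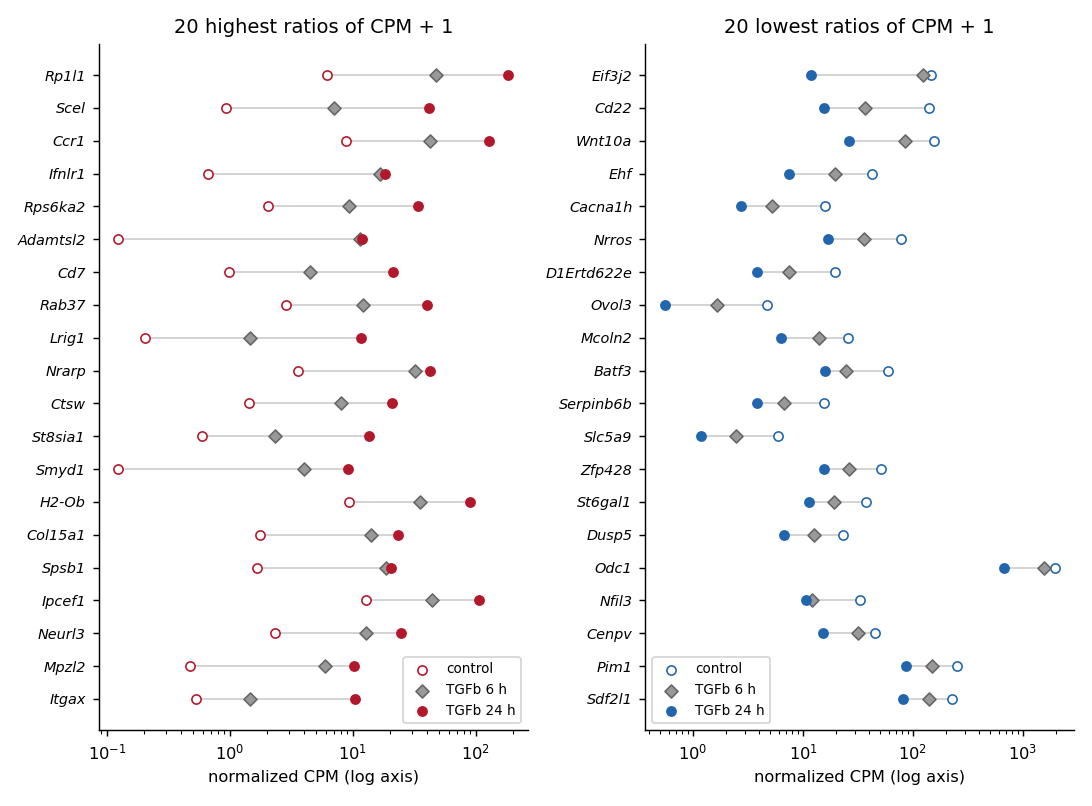
Normalized CPM (log axis) in control (open circle), 6 h (diamond) and 24 h (filled circle) for the 20 highest (left) and 20 lowest (right) ratios of CPM + 1. The 6 h level of each of these genes lay between the other 2, near 24 h for Adamtsl2 and near control for Eif3j2.

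In the pathway itself, 6 of 17 measured receptors, ligands and Smads were at least 2-fold higher and none lower, and 13 of 17 had a ratio above 1. Their median log2 ratio was 0.23, beside -0.01 for all measured genes, and 0.14 with the length trend described below removed. With that trend removed, 4 of 17 were at least 2-fold higher and 9 of 17 had a ratio above 1. Over all measured genes, 5245 of 10726 then had a ratio above 1. The type I receptors Tgfbr1 and Acvr1b had 40.9, 225 and 295 CPM and 9.9, 22.6 and 32.3 CPM, 7.21-fold (interval 6.87 to 7.58) and 3.26-fold (interval 2.92 to 3.65) higher. Tgfbr2, the type II receptor, had 101, 189 and 212 CPM, 2.1-fold higher (interval 2.02 to 2.18), under 2-fold with the length trend removed. Per transcript length the order of both receptors turned: Tgfbr1 had 10.8 TPM and Tgfbr2 32.6 TPM in control, and 93.9 and 81.8 TPM at 24 h. Smad3, which carries the signal, had 7.55, 7.28 and 4.62 CPM, 1.64-fold lower (interval 1.34 to 2.01), and did not reach 2-fold.

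Inhibitors of the pathway were higher beside the receptors. Of 19 measured feedback factors and co-repressors, 5 were at least 2-fold higher and none lower, with a median log2 ratio of 0.38 (0.21 with the length trend removed). Smad6, the inhibitory Smad, had 2.76, 7.94 and 9.17 CPM, 3.33-fold higher (interval 2.69 to 4.12), and Smad7 had 28.8, 59.4 and 76.1 CPM, 2.64-fold higher (interval 2.47 to 2.82). Skil had 36.8, 145 and 169.6 CPM. Spsb1, a ubiquitin ligase adaptor reported to act on the type II receptor, had 1.67, 18.6 and 20.4 CPM, 12.2-fold higher (interval 9.68 to 15.6). Ldlrad4, which keeps Smad2 and Smad3 from their receptor, had 2.43, 13.4 and 22.1 CPM, 9.11-fold higher (interval 7.48 to 11.2). Spsb1 was near its 24 h level at 6 h, while Ldlrad4 was not.

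The list of inhibitory receptors of B cell activation, their phosphatases and relatives had 27 measured members, 7 of them with shared reads. Of these 27, 20 had a ratio above 1 and 7 below. In all, 8 were at least 2-fold higher (Cd300lf, Fcrl5, Fcrla, Pirb, Ceacam1, Fcgr2b, Lilrb4a and Lair1) and Cd22 alone was lower. The median log2 ratio was 0.50, and 0.49 with the length trend removed. Fcrl5, an Fc receptor-like inhibitor of B cells, had 11, 17.1 and 48.8 CPM, 4.44-fold higher (interval 4.01 to 4.91), most of it after 6 h. Fcrla, its intracellular relative, had 8.41, 18.8 and 32.2 CPM, and Cd300lf, an inhibitory receptor with shared reads, 6.79, 17.8 and 32.6 CPM. In B cell receptor signalling, 3 of 28 members were higher and none lower, 10.7% beside the 7.43% over all genes: the calcium release channels Itpr2 (25.3, 60.6 and 83.7 CPM) and Itpr1 (98.3, 116 and 208 CPM) and the Ras exchange factor Rasgrp3 (139, 237 and 299 CPM). With the length trend removed only Itpr2 stayed 2-fold higher, and with total counts or TPM 6 members were.

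Chemokine, sphingosine phosphate and oxysterol receptors, which guide lymphocyte position, held 10 higher and 2 lower genes among 22 measured (median log2 ratio 0.59). Ccr1 had 8.83, 42.7 and 128 CPM, 14.5-fold higher (interval 13.2 to 16.1). Ccr6, a receptor of cells that home to mucosa, had 1.48, 5.67 and 8.31 CPM, 5.61-fold higher (interval 4.29 to 7.4), and Cxcr4, the receptor for Cxcl12, had 36.7, 124 and 138 CPM. Adora2b, an adenosine receptor, had 2.55, 14.5 and 13.8 CPM and was as high at 6 h as at 24 h. Cxcr5, Cxcr6, Gpr183, Ptger4 and S1pr4 were also higher, and Ackr3 and S1pr3 lower.

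Among interleukin and interferon receptors and their signal carriers, 9 of 35 were higher and Il6ra was lower (median log2 ratio 0.55, and 0.39 with the length trend removed). Ifnlr1, the receptor chain for type III interferon, had 0.658, 16.7 and 18.1 CPM. Jak2, the kinase of many of these receptors, had 31.2, 69.2 and 95.9 CPM, 3.07-fold higher (interval 2.88 to 3.27). Csf1r and Csf2rb2, receptors better known from myeloid cells, had 8.33, 16.4 and 25.8 CPM and 24, 43.1 and 76.5 CPM, the latter with shared reads. The others were Csf2ra, Csf2rb, Il1r2, Il10ra and Socs3. The TNF family held 2 higher genes (Tnfsf13b and Tnfrsf10b) and 4 lower genes among 26. Tnfrsf8, the CD30 receptor, had 3.31, 1.8 and 0.689 CPM, 4.81-fold lower (interval 3.01 to 8.08). Tnfsf9, the 4-1BB ligand, had 114, 69.8 and 55 CPM, and Tnfrsf19 and Tnfsf14 had 11.3, 5.11 and 4.2 CPM and 19.6, 11.5 and 9.55 CPM. Tnfsf9 and Tnfsf14 were under 2-fold with total counts, on TPM and with the length trend removed. Of the 4, Tnfrsf8 and Tnfrsf19 stood beyond 2-fold by their whole interval, and the 2 ligands did not. Only 2 genes of the list were 2-fold lower with total counts, and 2 on TPM.

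Adhesion and cell shape genes leaned to the higher side. Of 26 measured integrins, selectins and adhesion molecules, 8 were higher (Itgax, Vcam1, Cdh17, Pecam1, Itga6, Itgam, F11r and Itgae) and Itgb3 lower, with a median log2 ratio of 0.48. Vcam1, a ligand of alpha 4 integrins, had 0.103, 1.74 and 3.52 CPM, 34.2-fold higher on few control counts (interval 14.2 to 107). Cdh17, a cadherin, had 7.63, 13.5 and 28 CPM, and Pecam1, an adhesion receptor of endothelium and leukocytes, had 1.65, 3.51 and 7.34 CPM. Of 40 actin and cell shape genes, 6 were higher and none lower (median log2 ratio 0.22), among them the myosins Myo1f (32.2, 42.4 and 91.6 CPM) and Myo1d (15.4, 29.1 and 35.5 CPM, just under 2-fold with the length trend removed), calponin Cnn2 (61.3, 84.4 and 138 CPM) and Zyx (1.4, 2.1 and 4.72 CPM), a focal adhesion protein. Of 32 genes for matrix, proteases and serpins, 9 were higher and 3 lower. Ctsw, a cathepsin of killer cells, had 1.42, 8.07 and 20.9 CPM, and Serpinb6b, a serine protease inhibitor, had 15.7, 6.7 and 3.79 CPM.

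In the list of Id, E protein, Runx and Notch factors, 7 of 25 were higher and none lower, with 18 above a ratio of 1 and a median log2 ratio of 0.37. Notch1 and Notch3, its receptors, had 28.1, 64 and 106 CPM and 0.144, 1.35 and 2.72 CPM, 3.78-fold (interval 3.55 to 4.03) and 18.9-fold (interval 8.76 to 48.5) higher. Nrarp, a feedback inhibitor that Notch induces, had 3.56, 32.1 and 42.1 CPM, 11.8-fold higher (interval 10.1 to 14). Rbpj, the DNA-binding factor of the pathway, had 307, 648 and 722 CPM, 2.35-fold higher (interval 2.3 to 2.4), just under 2-fold with the length trend removed. Other Notch genes of the list, among them Notch2, Dtx1 and Mfng, were under 2-fold, and Dtx1 and Mfng had ratios below 1. The coactivator Maml2, Runx2 and the Id factor Id2 (23.2, 76.1 and 59.1 CPM) completed the group. Runx3, which acts with Smads in IgA switching, had 164, 291 and 284 CPM, 1.74-fold higher (interval 1.68 to 1.79), short of 2-fold.

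Wnt genes held 1 higher and 4 lower among 21, and 3 lower with total counts and 2 on TPM. Wnt10a, a secreted ligand, had 156, 84 and 26.3 CPM, 5.93-fold lower (interval 5.5 to 6.39), and Wnt6 was the other lower ligand. Lef1 and Axin2, a nuclear partner of beta-catenin and a feedback target of the pathway, had 3.56, 1.41 and 0.965 CPM and 38.1, 27.7 and 18.1 CPM. Tcf7, a second beta-catenin partner, had 7.69, 11.7 and 16 CPM, 2.07-fold higher. The list's median log2 ratio was -0.12. It was 0.04 with total counts and 0.36 on TPM, where all measured genes had 0.15 and 0.24. Of these scalings only TPM thus placed it above all genes. It also lay above all genes with no minimum level and with a minimum of 5 CPM.

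Factors of B cell fate included 3 higher and 1 lower of 24 (median log2 ratio 0.18, and 0.01 with the length trend removed). Bach2, a repressor that holds back plasma cell differentiation, had 12.3, 37.2 and 61.4 CPM, 4.97-fold higher (interval 4.53 to 5.46). Ikzf3 (Aiolos) had 144, 305 and 425 CPM and Pou2f2 (Oct2) 95.3, 139 and 251 CPM. Elsewhere among transcription factors, Ahr, the aryl hydrocarbon receptor, had 17.7, 56.5 and 85.2 CPM, 4.82-fold higher (interval 4.46 to 5.21), and its repressor Ahrr had 7.45, 13.7 and 22 CPM. They belonged to the list of Kruppel-like, Fox and nuclear receptor factors, where 5 of 31 were higher (Ahr, Ahrr, Klf5, Klf12 and Nr2c2, the last under 2-fold with the length trend removed) and Rarg and Nr1d1 lower. Of 29 AP-1, Egr, Atf and NF-kB factors, Nfkbiz, an inducible cofactor of NF-kB, had 23.7, 67.9 and 103 CPM, Fosb was also higher, and Batf3 was lower at 59.8, 24.9 and 16 CPM. Of 31 genes of MAP kinase feedback, 5 were higher and Dusp5 lower, but 2 were higher with the length trend removed, where the list's median log2 ratio of 0.12 became -0.10. Rps6ka2, an Erk-dependent kinase, had 2.04, 9.39 and 33.8 CPM, and Dusp4, a phosphatase of nuclear MAP kinases, had 15.3, 64.7 and 53.4 CPM. Dusp4 and Dusp5, which can both act on Erk, thus lay on opposite sides of control.

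Class II and interferon response genes were mostly on the higher side. Of 13 class II genes, 12 had a ratio above 1 and 2 were at least 2-fold higher. H2-Ob, part of the H2-O inhibitor of peptide loading, had 9.26, 35.4 and 90.3 CPM, 9.75-fold higher (interval 8.82 to 10.8), whereas its partner H2-Oa had 15.5, 17.1 and 27.6 CPM, 1.79-fold higher (interval 1.62 to 1.98). Ciita, the master regulator of class II genes, had 72, 133 and 182 CPM. Of 21 class I genes, only Nlrc5, the class I counterpart of Ciita, was 2-fold higher, at 17.1, 21.5 and 36.8 CPM, and none was with the length trend removed. The list's median log2 ratio was 0.05. March1, a ubiquitin ligase that removes class II and CD86 from the surface, was the only one of 19 costimulation and display partners 2-fold apart, at 0.329, 0.482 and 1.9 CPM. Of 37 interferon-stimulated genes, 10 were higher and 2 lower (Bst2 and Isg20), with 30 above a ratio of 1 and a median log2 ratio of 0.65 (0.70 with the length trend removed). Lgals3bp, a secreted glycoprotein, had 51.8, 90.7 and 156 CPM, 3.01-fold higher (interval 2.87 to 3.16). Samd9l had 8.99, 14 and 26.8 CPM and Dhx58, a sensor of viral RNA, 11.3, 14.4 and 28.9 CPM. Of 25 Toll-like receptors and adaptors, 3 were higher, Tlr2 (20.4, 59.4 and 64.3 CPM), Tlr9 (32.4, 47.5 and 85.7 CPM) and Naip5, which shares reads with its copies. Ly96, the partner of Tlr4, was lower at 3.42, 2.07 and 1.69 CPM, under 2-fold with total counts, on TPM and with the length trend removed.

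Lists of biosynthesis genes had medians below that of all genes, with most members less than 2-fold apart. Of 68 ribosome biogenesis factors, 67 had a ratio below 1 and 10 were at least 2-fold lower, with a median log2 ratio of -0.76 (-0.72 with the length trend removed). The count of 10 depended on the scaling: 2 were 2-fold lower with total counts and none on TPM, where the median was -0.60 and -0.50. Nhp2, a core protein of box H/ACA particles that modify ribosomal RNA, had 368, 242 and 155 CPM, 2.38-fold lower (interval 2.3 to 2.46). Mrto4, Nop2 and Noc2l, all nucleolar assembly factors, had 201, 130.1 and 90.02 CPM, 317, 202 and 149.5 CPM and 429.9, 264 and 194 CPM, the last with shared reads. Nop2 and Noc2l were under 2-fold with total counts and on TPM, and Nhp2 and Mrto4 on TPM and with the length trend removed. Of 23 aminoacyl-tRNA synthetases and cofactors, 22 were below a ratio of 1 (median log2 ratio -0.63), and only Eef1e1, a scaffold of the synthetase complex, passed 2-fold, at 112, 71.9 and 52.1 CPM; none did with total counts, on TPM or with the length trend removed. Of 51 translation factors, 44 were below 1 (median log2 ratio -0.44). Eif4ebp1, the repressor of cap binding that mTOR inactivates, had 94.2, 62.8 and 34.7 CPM, 2.72-fold lower (interval 2.54 to 2.91). Pdcd4, an inhibitor of the helicase eIF4A, had 115, 147 and 237 CPM, 2.06-fold higher. Eif3j2 had 145, 122.98 and 11.8 CPM, but it shares reads with its near-identical copy and its value is uncertain.

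Of 46 genes for polyamines, nucleotides and one-carbon units, 41 were below a ratio of 1 and 4 at least 2-fold lower (median log2 ratio -0.59), with 3 lower under total counts, on TPM and with the length trend removed, where Aprt was not among them. Odc1 and Srm, consecutive enzymes of polyamine synthesis, had 1955, 1567 and 667 CPM and 575, 332 and 215 CPM, 2.93-fold (interval 2.89 to 2.98) and 2.67-fold (interval 2.6 to 2.75) lower. Impdh1 and Aprt, enzymes of guanine synthesis and adenine salvage, had 28.2, 17.1 and 11.2 CPM and 277, 185 and 125 CPM. Myc, the transcription factor that drives many of these genes, had 593, 335 and 283 CPM, 2.1-fold lower (interval 2.05 to 2.15), which was under 2-fold with total counts and on TPM. Within its network 3 genes were higher and 2 lower of 20. Mycl, a Myc relative, had 1.5, 3.65 and 8.58 CPM, and Mxd4, a Max partner that opposes Myc, had 17.7, 29.96 and 58.9 CPM, 3.32-fold higher (interval 3.06 to 3.61); Mxd1 was the third.

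Protein folding genes followed. Of 35 chaperones, 33 were below a ratio of 1 (median log2 ratio -0.55), but only Fkbp4, a co-chaperone of Hsp90, passed 2-fold, at 519.7, 359.9 and 250 CPM, and it did not with total counts, on TPM or with the length trend removed. Of 48 genes for folding in the endoplasmic reticulum, 41 were below 1 (median log2 ratio -0.43) and 3 at least 2-fold lower: Sdf2l1 (226, 139 and 80.4 CPM), Creld2 (145, 103 and 63.3 CPM) and Fkbp11 (29.9, 20.2 and 10.1 CPM). Creld2 was under 2-fold on TPM and with the length trend removed. The medians of all the biosynthesis and folding lists named so far stayed below 0 under every scaling tried and with the length trend removed.

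**Figure D3:**
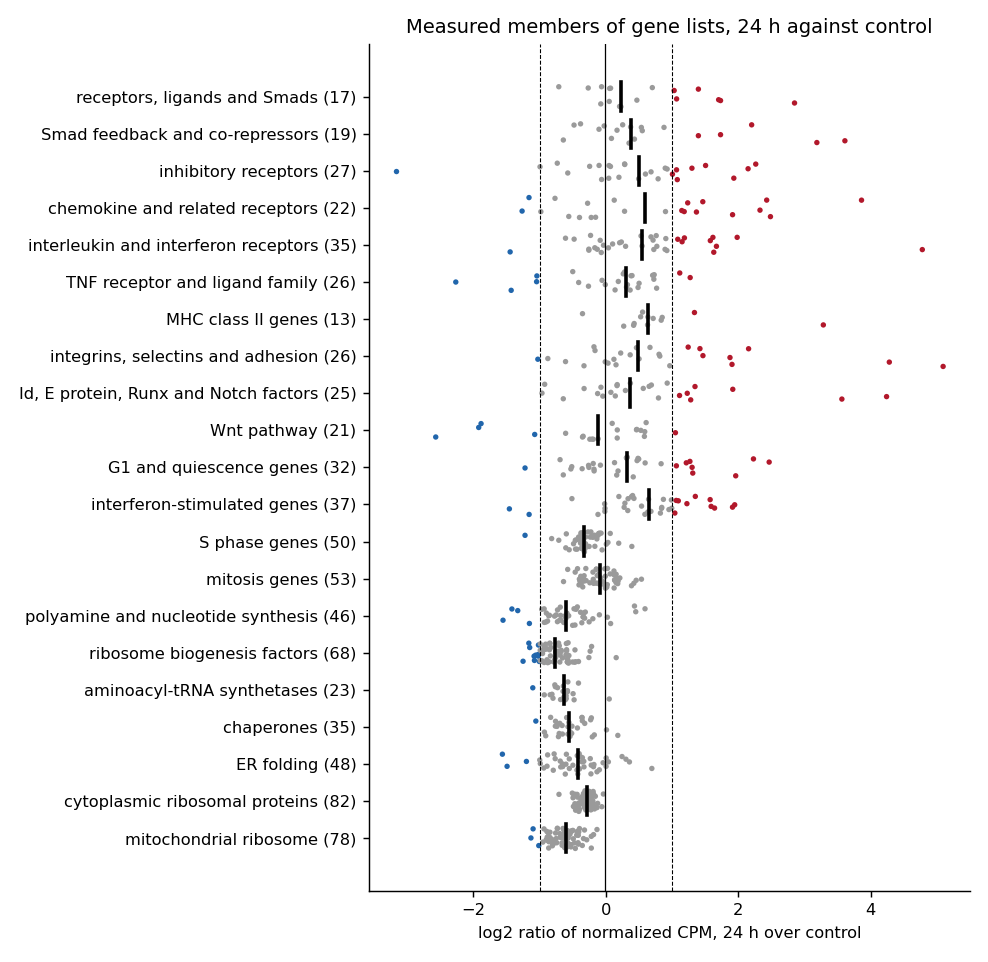
Log2 ratio of normalized CPM, 24 h over control, for each measured member of 21 gene lists (number measured in brackets); red and blue points are at least 2-fold apart, black bars are list medians, the thin line is the median of all measured genes and dashed lines mark 2-fold. Receptor lists spread to the right with long tails, while biosynthesis lists sit left of 0 within a narrow range.

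The ratio also moved with transcript length. In 10 bins of effective length, the median log2 ratio went from -0.37 in the shortest bin to 0.42 in the longest, and the share of genes 2-fold higher from 3.36% to 13.3%. The share 2-fold lower went from 4.29% to 0.653%. Higher genes had a median effective length of 3274 bases and lower genes 1713, beside 2678 for all measured genes. The length that RSEM took off for the fragments also differed, at 170.3 bases in control and 177.8 at 24 h, and its part in the trend was not tested. With the trend removed by a running median, 733 genes were higher and 169 lower, of which 647 and 134 were among those called without it.

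**Figure D4:**
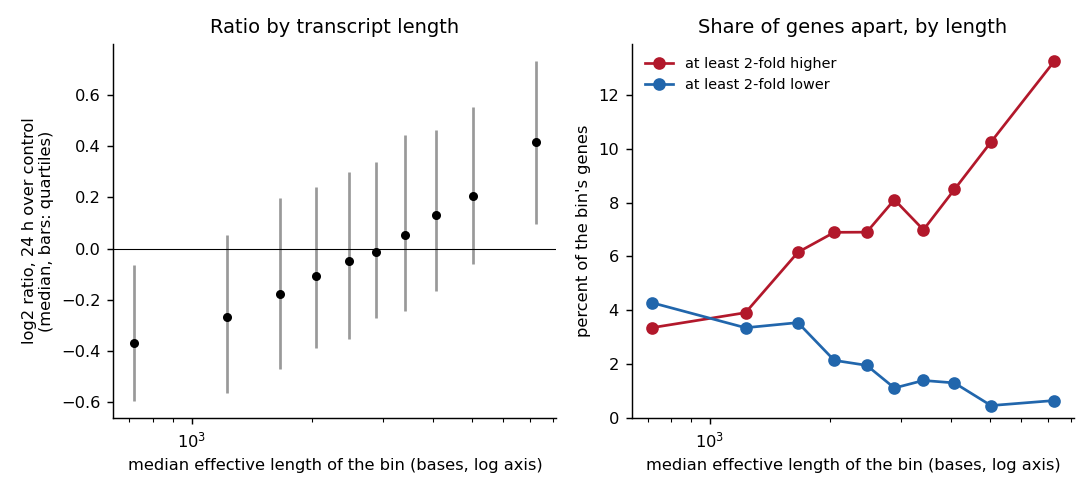
Left, median log2 ratio of 24 h over control with quartiles (bars) in 10 bins of effective transcript length; right, percent of each bin's genes at least 2-fold higher (red) or lower (blue). Medians go from -0.37 to 0.42 and the higher share from 3.36% to 13.3% towards long transcripts.

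Families of short transcripts were the ones this touched most. All 82 measured cytoplasmic ribosomal proteins had a ratio below 1 and none was 2-fold apart, with a median log2 ratio of -0.28. With the length trend removed the median was 0.04, beside -0.01 for all measured genes. On TPM it was 0.00, beside 0.24 for all measured genes, so there the list stayed below all genes. All 78 mitochondrial ribosomal proteins were below 1 (median log2 ratio -0.60) and 3 were 2-fold lower, Mrpl12 (305, 194 and 139 CPM), Mrps18b (85.8, 62.6 and 40.1 CPM) and Mrps18a (57.7, 42.4 and 28.6 CPM). None was 2-fold lower with total counts or on TPM, and with the trend removed these 3 were not and the median was -0.32. For 76 respiratory chain subunits the median of -0.42 became -0.08, and none was 2-fold apart. Of 38 proteasome subunits, Psmd7 (253, 170.1 and 119 CPM) passed 2-fold, as none did with total counts, on TPM or with the trend removed, and the median of -0.55 became -0.29. Long transcripts showed the reverse: 64 of 93 chromatin enzymes were above a ratio of 1 with a median log2 ratio of 0.26, which became 0.02. Kmt2a and Kdm5b, a histone methyltransferase and a demethylase, had 98.8, 149 and 212 CPM and 5.39, 8.97 and 12.9 CPM, and Tet3, which oxidises methylcytosine, had 55.8, 81.7 and 116 CPM; all 3 were under 2-fold with the trend removed. Of 303 zinc finger Zfp genes, 226 were above 1 (median log2 ratio 0.28, and 0.22 with the trend removed). In this list 14 (4.62%) were higher and 2 (0.66%) lower, both under the 7.43% and 2.02% over all measured genes. Zfp831 and Zfp709 had 3.58, 7.9 and 17.9 CPM and 7.39, 11.9 and 27.6 CPM.

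Of 32 G1 cyclins, Cdk inhibitors and quiescence genes, 8 were higher and Ccne1 lower (median log2 ratio 0.31). Ccng2, an atypical cyclin of resting cells, had 9.05, 41 and 50.1 CPM, 5.53-fold higher (interval 4.97 to 6.17). Ypel3 had 14.2, 48.7 and 66.8 CPM, and Btg1 and Btg2, antiproliferative factors, had 63.5, 129.9 and 247 CPM and 37.3, 62.2 and 92.6 CPM. Tsc22d3, Cdkn2d, Rbl2 and Pik3ip1 were the other higher members. Ccne1, the cyclin that drives entry into S phase, had 111, 71.5 and 47.6 CPM, 2.33-fold lower (interval 2.19 to 2.47), and was the only one of 50 S phase genes 2-fold apart, under 2-fold on TPM, although 45 were below a ratio of 1 (median log2 ratio -0.33). None of 53 mitosis genes was 2-fold apart: Cdc20 had 356, 295 and 229 CPM, 1.56-fold lower, and Mki67 449.8, 609.7 and 618 CPM, 1.37-fold higher. These folds are without removal of the length trend. In the mitosis list 19 genes had a ratio above 1, and 12 had with that trend removed. The mitosis median was -0.08, beside -0.01 for all measured genes. It was 0.07 with total counts and 0.18 on TPM, where all measured genes had 0.15 and 0.24, so it lay below all genes in each. Of 32 genes of the Bcl2 family and cell death, only Bmf, a pro-apoptotic BH3-only protein, passed 2-fold, at 3.85, 9.3 and 24.5 CPM, 6.38-fold higher (interval 5.42 to 7.53).

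Metabolic lists held a few large differences. Of 42 genes of sterol synthesis and export, 3 were higher and none lower, all in export and transport: Abca1 (10.8, 55.2 and 82.6 CPM, 7.66-fold higher, interval 6.97 to 8.44) and Abcg1 (21.9, 75 and 61.1 CPM), which load cholesterol onto lipoproteins, and Npc1 (30.4, 57.6 and 79.99 CPM, shared reads), which releases it from lysosomes. Of 35 glycolysis genes, 23 were below a ratio of 1 (median log2 ratio -0.32). Slc16a1, the lactate transporter MCT1, was 2-fold lower at 254, 169 and 113 CPM, but not on TPM, while Slc2a6, a lysosomal hexose transporter, Arrdc3 and Pfkfb2 were higher at 34.7, 64.8 and 80.1 CPM, 8.93, 13.2 and 21.9 CPM and 13.8, 20.4 and 28.8 CPM, the last under 2-fold with the length trend removed. Among 27 amino acid transporters and ATF4 targets, the higher genes were the sestrins Sesn3 (15.3, 35.8 and 51.4 CPM) and Sesn1 (66.4, 99.6 and 134 CPM, just under 2-fold under 3 alternatives) and Ddit4 (30.9, 59.5 and 63.7 CPM), all inhibitors of mTORC1. Of 184 solute carriers, 15 were higher (8.15%) and 6 lower (3.26%), near the 7.43% and 2.02% over all measured genes. Slc29a3, a lysosomal nucleoside transporter, had 35.8, 92.1 and 142 CPM, 3.97-fold higher (interval 3.75 to 4.2), and Slc6a12, a betaine transporter, had 1.5, 4.2 and 7.24 CPM. Of 58 lysosome genes, 3 were higher and 3 lower (5.17% each). The mucolipin channels Mcoln2 and Mcoln3 had 25.9, 14 and 6.31 CPM and 3.81, 2.46 and 1.31 CPM, 4.11-fold and 2.91-fold lower.

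Glycan enzymes split in both directions, with 4 higher and 1 lower among 30. B4galt1, the galactosyltransferase that prepares chains for sialic acid, had 164, 461 and 570.0 CPM, 3.47-fold higher (interval 3.38 to 3.57). Mgat5, which branches N-glycans, had 11.1, 20.8 and 34.8 CPM, St8sia1, which makes the ganglioside GD3, had 0.597, 2.32 and 13.4 CPM, and Fut7 was the fourth. St6gal1 was the lower member. Ion channels held 6 higher (10.9%) and 3 lower (5.5%) of 55, beside 7.43% and 2.02% over all measured genes. Of the T-type calcium channels, Cacna1g had 7.22, 28.2 and 25.7 CPM, 3.56-fold higher, and Cacna1h 15.7, 5.24 and 2.76 CPM, 5.7-fold lower. Cacna1g and Cacna1h thus stood on opposite sides of control. Kcnh4, a potassium channel, had 4.59, 15.4 and 20.1 CPM. Of 45 kinesins and dyneins, 6 were higher, led by Kif1a (0.844, 2.6 and 10.3 CPM), a vesicle motor of axons, and Dnah6 (1.21, 2.19 and 11.1 CPM), an axonemal heavy chain. Of 42 Rab GTPases, 4 were higher (9.52%), among them Rab37 (2.88, 12.1 and 39.7 CPM), Rab20 (6.83, 17.9 and 17.6 CPM) and Rab6b (1.38, 3.11 and 4.31 CPM).

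Ranked by CPM instead of ratio, the differences fell on other genes. The largest difference above control was that of Ccl22, a chemokine, at 2027 and 3236 CPM in control and 24 h, only 1.6-fold higher. Next came the actin-bundling protein Lcp1 (1196 and 2115 CPM) and Actb (3943 and 4822 CPM, shared reads), also under 2-fold, and then Apoe. Of the 15 largest such differences, 5 were at least 2-fold: Apoe, Rbpj, B4galt1, Mycbp2 and Sema4d (116 and 409 CPM), a semaphorin. Mycbp2 and Rbpj were under 2-fold with the length trend removed. The largest differences below control were those of the nucleolar proteins Npm1 (4972 and 2946 CPM) and Ncl (3553 and 1893 CPM) and the chaperones Hsp90ab1 (6815 and 5066 CPM) and Hspa8 (4100.0 and 2760.3 CPM). Of these 15, Odc1 and Fth1 were 2-fold lower, Fth1 not with total counts, on TPM or with the length trend removed. Fth1 and Ftl1, the ferritin chains that store iron, had 1673 and 761 CPM and 2057 and 1153 CPM. Genes 2-fold higher took 1.18% of all counts in control and 3.47% at 24 h, and genes 2-fold lower 2.42% and 1.18%.

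**Figure D5:**
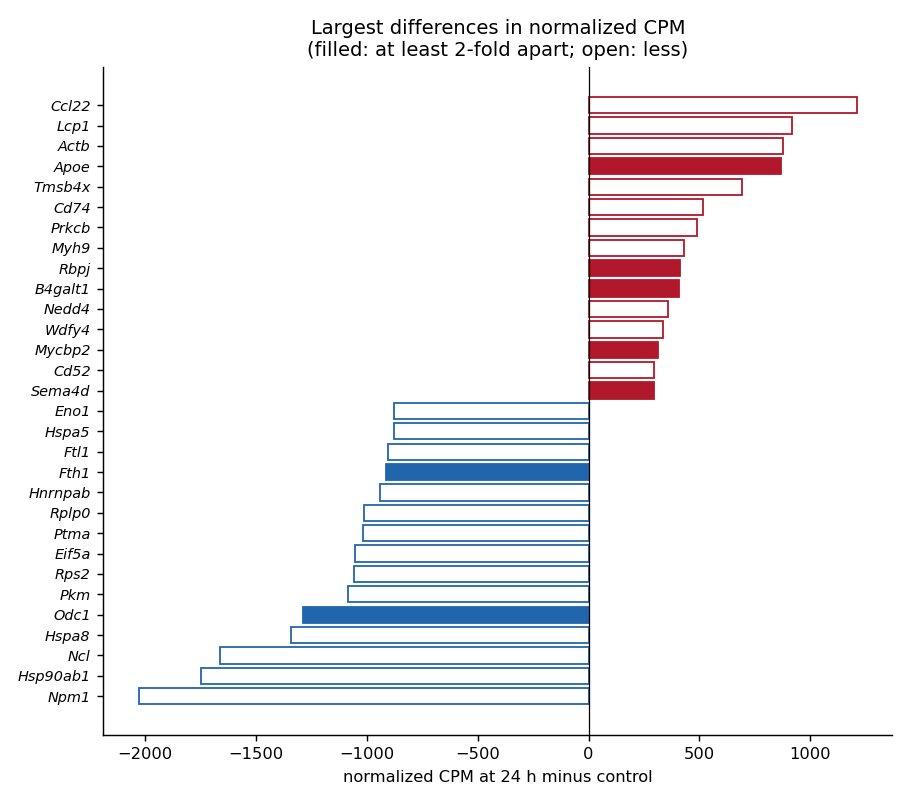
Difference in normalized CPM, 24 h minus control, for the 15 largest differences above (red) and below (blue) control; filled bars are genes at least 2-fold apart. Only 5 of the 15 red and 2 of the 15 blue bars are filled, and Npm1 has the largest difference.

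Higher genes often lay next to each other. Of 793 higher genes with a position, 239 (30.1%) had an adjacent measured gene that was also higher, beside 14.1% of all 10704 positioned genes with a higher neighbour. For lower genes the shares were 7.83% (17 of 217) and 3.94%. A run of 3 adjacent genes on chromosome 10 (GRCm38.p6, 60302748 to 60752849) joined Cdh23, Slc29a3 and Vsir, the inhibitory checkpoint VISTA, which had 11.2, 28.3 and 56.1 CPM, 5.03-fold higher (interval 4.57 to 5.56). On chromosome 4 (135442805 to 135815571) Ifnlr1 stood between Nipal3 (10.8, 19.7 and 32.3 CPM) and Myom3 (0.37, 1.1 and 1.21 CPM). On chromosome 2 (27021363 to 27248332) Adamtsl2 stood between Slc2a6 and Sardh (0.288, 1.59 and 1.72 CPM). Runs of gene copies, such as Naip5, Naip6 and Naip1 or Gbp8, Gbp9 and Gbp4, had reads shared among genes and their single values are uncertain. The genes of these runs were picked with their values known.

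Markers of the labelled cell type were present. All 12 B cell markers were measured, and 11 were less than 2-fold apart. Cd79a had 379, 413 and 464 CPM and Pax5 47, 42.3 and 56.5 CPM; Cd22 alone was 2-fold lower. Of plasma cell markers, 6 of 9 were measured, and their summed level was 1229, 1139 and 823.9 CPM in control, 6 h and 24 h. Jchain and Fkbp11 were 2-fold lower, while Irf4 had 197, 312 and 303 CPM and Prdm1, the plasma cell regulator, 10.4, 11.6 and 9.55 CPM.

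Some markers of other cells were also higher. Of 18 myeloid markers, 6 were measured and 4 were 2-fold higher. Itgax, which encodes CD11c, had 0.535, 1.46 and 10.4 CPM, Adgre1 (F4/80) 2.04, 2.5 and 12.9 CPM, Csf1r 8.33, 16.4 and 25.8 CPM and Itgam (CD11b) 0.864, 0.902 and 3.24 CPM. The list's summed level was 343.1, 505.1 and 659.9 CPM, most of it from Cybb, a gene that B cells also express, at 317, 469 and 589 CPM. Of the list's members that were not measured, Lyz1, S100a8, S100a9 and Elane had 0 counts in each library, and Lyz2 and Ly6g had 0 at 24 h. A count of 0 allows up to 3 counts. Of 12 fibroblast and endothelial markers, 4 were measured, all 2-fold higher, at a summed level of 5.39, 11.1 and 17.9 CPM over the list; Col1a2, Col3a1 and Kdr were at 0 at 24 h. Of 11 T cell markers in the tables, 4 were measured; Cd4 was 2-fold lower at 2.9, 1.17 and 1.03 CPM, and the summed level of 166.7, 268.1 and 270.5 CPM was mostly that of Lck (153, 257 and 259 CPM). NK markers summed to 14.3 to 19.2 CPM, epithelial markers to 2.16 to 2.86 CPM and erythroid and platelet markers to 3.31 to 6.14 CPM, with Gata1 at 0.309, 0.451 and 1.79 CPM. In bulk RNA a change in the number of such cells and in RNA per cell cannot be told apart, and the part of other cells in the results was not tested.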

How the data were processed

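mRNA was sequenced from 3 CH12 libraries. Per the labels' protocols, poly(A) RNA was isolated on magnetic beads and read for 50 cycles, and per the submitters' processing notes the tools were RSEM, STAR, bedtools and CASAVA (version 1.8.2) with mm10. Sources used here do not give the annotation, the strand setting or other versions. Per the file headers, the authors deposited an expected count (an RSEM estimate that shares out reads fitting several genes), a TPM value and an FPKM value per gene; the FPKM was not used. The effective lengths of the deposited tables, also used here, are transcript lengths less the fragment term.

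Expected counts were rounded to whole numbers and scaled by TMM factors over the 3 libraries (0.946, 1.00 and 1.06 for control, 6 h and 24 h; edgeR 4.0.16, R 4.3.3). The deposited TPM served to compare genes with each other. A gene was measured with at least 30 counts and 1 CPM in the higher of control and 24 h, and counted as apart at 2-fold, a library at 0 being given 3 counts. The rule, the intervals and the length trend (a running median over 501 genes) were tested on simulated data. The simulated counts held counting error only, with changes larger than 2-fold in genes well above 1 CPM. They do not cover differences near 2-fold, changed genes near 1 CPM or the spread between cultures. Depth limits genes of low level most. Of the measured genes, 1170 (10.9%) had fractional expected counts, which mark shared reads.

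The comparison, the gene lists and the naming rule were chosen with earlier results of these data known. The rule named the 30 highest and 30 lowest log2 ratios of CPM + 1, the 15 largest differences in CPM on each side, up to 4 members per list, the measured markers, the genes with under 30 counts in 1 library and at least 5 CPM in the other, and a few reference genes. Further list members 2-fold apart were named after their values were seen. A few of the genes named by it are left out. Positions and promoters are those of RefSeq on GRCm38.p6, the assembly that mm10 holds, with 10704 measured genes positioned. Alternatives were other scalings (DESeq2 1.42.0 size factors among them), levels, limits, the removal of genes with shared reads, and the removal of the length trend.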

Additional observations from a re-analysis of the deposited data

How the results depend on the processing

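The number of genes at least 2-fold higher (797) was 1583 with no minimum level, 502 with a minimum of 5 CPM, 1808 at 1.5-fold, 313 at 3-fold and 499 when the whole counting interval had to lie beyond 2-fold. The number lower (217) was 118 with total counts, 77 on the deposited TPM, 438 with no minimum, 1274 at 1.5-fold, 37 at 3-fold and 126 by the whole interval. The looser and stricter limits keep more or fewer genes by construction. All 797 and 118 of the 217 were also called with total counts, and 688 and 71 on TPM. The other scalings gave 762 to 833 higher and 198 to 251 lower. Of 1658 values of 277 named genes under other scalings and with the length trend removed, 661 moved beyond the counting interval, and none of a gene at least 2-fold apart changed direction. Of the 183 of these genes 2-fold apart, 31 were under 2-fold with the length trend removed, 16 with total counts and 21 of 180 on TPM. Of 283 list values, each a median less that of all measured genes, 17 changed sign. With no minimum level these were MHC class I (-0.0141), AP-1 and NF-kB factors (-0.0335), MAP kinase feedback (-0.0431), Rab GTPases (-0.035), solute carriers (0.0191), Wnt (0.1101) and T cell markers (1.00). A minimum of 5 CPM turned Wnt (0.1806) and T cell markers (0.30). TPM turned Wnt (0.1193) and sialic acid and glycan enzymes (0). Leaving out shared reads turned MHC class I (-0.17) and solute carriers (0.0241). Removing the length trend turned MAP kinase feedback (-0.092), cytoplasmic ribosomal proteins (0.0556), lysosome genes (0.0568) and kinesins and dyneins (-0.027). The cause was not tested. The 24 h library had the fewest counts, so genes near 1 CPM rest on about 30 counts there. No paired analysis was possible because each group has 1 library.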
